A study of Mus musculus with 15 samples.

Results

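Herpud1 and 9 other genes of the endoplasmic reticulum (ER) stress response, Hspa5, Xbp1, Atf4, Atf6, Creb3l4, Sel1l, Derl1, Dnajb9 and Ddit3, were followed through germ cell development in mouse testes exposed to JQ1. The 10 genes were taken by symbol from the 10x Genomics feature list, where they occupy 11 of 32285 rows because Ddit3 is listed with 2 gene identifiers, and they were chosen by the low Herpud1 level of JQ1-treated spermatids, a measured value of these data. JQ1 is a small-molecule inhibitor of BET bromodomain proteins, among them the testis-specific BRDT. The 15 single-cell RNA libraries came from individual testes of adult DBA/2J males, 3 per group. Group T received JQ1 at 50 mg/kg by daily intraperitoneal injection for 3 weeks and was taken at the end of dosing, at 10 weeks of age. Group VC-T received vehicle on the same schedule and was also 10 weeks old. Group R was taken 6 weeks after the last JQ1 dose, and group VC-R 6 weeks after the last vehicle dose, both at 16 weeks of age. Group UC was untreated and 15 weeks old, so that T and UC differed in age as well as in treatment and these cannot be told apart in T against UC.

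The ER stress response, also called the unfolded protein response, adjusts protein folding and disposal in the ER to the load of unfolded proteins. Sensors in the ER membrane activate the transcription factors ATF6, XBP1 and ATF4, which raise chaperones such as the HSP70-type BiP, encoded by Hspa5, and the parts of ER-associated degradation (ERAD), the route by which misfolded proteins are drawn out of the ER and sent to the proteasome. Herpud1 encodes HERP, a ubiquitin-like-domain protein of the ER membrane that works with the ERAD ligase complex, and is known as a strongly stress-inducible gene. Haploid germ cells carry a heavy secretory load while the acrosome forms, and Creb3l4 encodes a testis-enriched, membrane-bound relative of ATF6.

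The upstream sequences of Herpud1 and Hspa5 are shown because both carry textbook stress elements while their levels ran in opposite directions through spermiogenesis. They are RefSeq sequences on GRCm38.p6, plus strand, written 5′ to 3′ with matches to the searched motifs in capitals. The Herpud1 stretch covers bases -150 to -1 before the RefSeq start (chr8:94386279-94386428), and the Hspa5 stretch bases -70 to -41 (chr2:34772020-34772049).
Herpud1: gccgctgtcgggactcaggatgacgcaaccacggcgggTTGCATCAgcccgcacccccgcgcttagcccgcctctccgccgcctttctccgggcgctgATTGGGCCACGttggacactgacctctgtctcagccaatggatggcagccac
Hspa5: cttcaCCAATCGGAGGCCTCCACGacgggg
In Herpud1 the capitals mark the CHOP-ATF4 element core TTGCATCA at -112 to -105 and the ER stress element II at -52 to -42. In Hspa5 they mark the ER stress element at -65 to -47. The search ended at base -1, so an element reaching past the RefSeq start could not be matched. The Herpud1 stretch ends in bases that follow the ER stress element pattern in all but its final letter, which would lie past the start. They are left in small letters, and whether Herpud1 holds the complete element there was not tested. Both strands of the 250 bases before each start were searched, also for TGACGTGG and TGACGTCA, and the matches did not overlap. RefSeq promoters were given for 8 of the 10 genes, not for Atf6 and Derl1, and the other 6 held none of the 5 letter strings in this window. Of 32851 promoters of the same length, 0.0304% held the ER stress element II, 0.113% the ER stress element, 0.792% the CHOP-ATF4 core, 0.563% TGACGTGG and 1.55% TGACGTCA.

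On mm10 (GRCm38) Herpud1 lies at chr8:94386438-94395377, plus strand, Hspa5 at chr2:34771970-34777547, plus strand, Creb3l4 at chr3:90237500-90243512, minus strand, and Derl1 at chr15:57869502-57892448, minus strand, all protein coding. These spans are from the GENCODE annotation, whose starts differ from the RefSeq starts used above. The GENCODE span of Hspa5 begins earlier, so the Hspa5 stretch printed above lies inside it.

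The libraries held 9673587 to 98724982 unique molecular identifiers (UMIs, each counted as 1 captured transcript), and 72362 cells passed the filters. At most 25 cell barcodes were shared by any pair of libraries. Clusters were named from marker genes as spermatid-like (23789 cells), spermatozoa-like (22700, a class that can take in elongating spermatids), spermatocyte-like (15733) and spermatogonia-like (2138). Levels are in CPM, a UMI count scaled to a common library total, of the summed cells of a class in a library, so fewer cells of a stage within a class and less RNA per cell cannot be told apart. Because the 10x assay counts 1 end of each transcript, CPM are not divided by transcript length, yet genes are set against each other here only through their patterns. Library VC-T 1 stood apart from its group. It held 0 spermatozoa-like cells among 5504, as T held 1, 1 and 4, against 916 and 1502 in VC-T 2 and VC-T 3. It was left out of the VC-T arm of the tests, as the study did, and the effect of keeping it is given beside the calls against VC-T. VC-R 1 departed from VC-R 2 and VC-R 3 in several members, as given below. Shallow spermatid-like clusters, 4 in number and each with a median UMI count under 0.6 of that of the libraries its cells came from, made up 62.75% to 83.7% of the spermatid-like cells of R and 79.6% in VC-T 2, against 4.44% to 22.7% in the other libraries.

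In the 8 control libraries (UC, VC-R, VC-T 2 and VC-T 3), Herpud1 was a late gene. Its mean was 43.8 ± 17.4 CPM (SD, n = 8) in spermatogonia-like cells, 65.0 ± 18.4 in spermatocyte-like cells, 95.6 ± 17.3 in spermatid-like cells and 494 ± 50.0 in spermatozoa-like cells. The ranges of the earlier classes overlapped between neighbours, whereas the spermatozoa-like range, 408 to 567 CPM, lay clear of the others at 5.17 times the spermatid-like mean. Finer steps of development were read from 20 equal bins of diffusion pseudotime, an ordering of germ cells by similarity of their transcriptomes built without the 10 genes. Herpud1 was near 44.8 to 59.4 CPM in bins 1 to 5 and 117.9 ± 93.2 in bin 6, where the libraries spread from 30.65 to 315.7, fell to 12.7 ± 6.85 in bin 9, where cells were spermatid-like, then climbed to 99.75 ± 13.3 in bin 12, 280.1 ± 21.6 in bin 13 and 906 ± 63.0 in bin 20 (SD, n = 8).

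Hspa5 ran the other way. It averaged 364 ± 47.6 CPM in spermatogonia-like cells, 485 ± 102 in spermatocyte-like cells, 139 ± 55.5 in spermatid-like cells and 18.1 ± 6.44 in spermatozoa-like cells (SD, n = 8). Only its first pair, spermatocyte-like and spermatogonia-like, had overlapping ranges. The highest Hspa5 levels lay in the spermatocyte-like cluster with the earliest pseudotime, led by Dazl, Prss50 and Hist1h2aa, at 1772 to 2592 CPM in the 8 controls, 1652 to 1975 in R and 1552 in VC-T 1. In T that cluster held 23, 10 and 13 cells, with Hspa5 at 848, 826 and 735 CPM from 28, 14 and 23 UMIs.

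The 3 classical transcription factors had their lowest class means in haploid cells. Atf6 went from 33.1 ± 10.7 CPM in spermatogonia-like cells to 1.17 ± 0.501 in spermatozoa-like cells, Atf4 from 40.4 ± 18.8 to 7.25 ± 1.34, and Xbp1 from 31.1 ± 9.76 to 0.0745 ± 0.0812, the last from 4 UMIs in 8 libraries. Along pseudotime Atf6 of the controls had a second peak among spermatid-like cells, from 2.01 ± 2.01 CPM in bin 8 to 26.4 ± 9.10 in bin 12 and 1.77 ± 1.05 in bin 14 (SD, n = 8), above the 10.9 ± 3.54 of bin 5. Creb3l4 was haploid-enriched. It averaged 540.2 ± 74.3 CPM in spermatid-like and 277 ± 21.2 in spermatozoa-like cells, against 37.7 ± 24.3 and 32.9 ± 35.9 in spermatogonia-like and spermatocyte-like cells, whose ranges overlapped. Along pseudotime it rose from 17.6 CPM in bin 5 to 748 in bin 13 and declined to 63.8 in bin 20.

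Among the ERAD genes, Sel1l, the adaptor of the ERAD ligase HRD1, dropped from 59.4 ± 11.9 CPM in spermatogonia-like cells to 0.597 ± 0.373 in spermatozoa-like cells, with no overlap between neighbouring classes. Derl1, a channel-forming derlin, was level between spermatocyte-like (68.2 ± 9.26) and spermatid-like cells (67.8 ± 9.73) and fell to 13.99 ± 2.02 in spermatozoa-like cells. Dnajb9, a co-chaperone of BiP, had the smallest ratio of highest to lowest class mean among the 10 genes, from 71.8 ± 42.8 CPM in spermatogonia-like to 143 ± 8.93 in spermatozoa-like cells. Ddit3, which encodes the pro-apoptotic factor CHOP, peaked in spermatocyte-like cells at 186 ± 12.6 CPM and stood at 76.1 ± 10.9 in spermatid-like cells. All Ddit3 counts lie in one of its 2 rows, whose gene models overlap on the same strand of chromosome 10, so reads shared by both models may be missing. Since classes and pseudotime were built from the same cells, these stage differences are a description with no test.

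**Figure D1:**
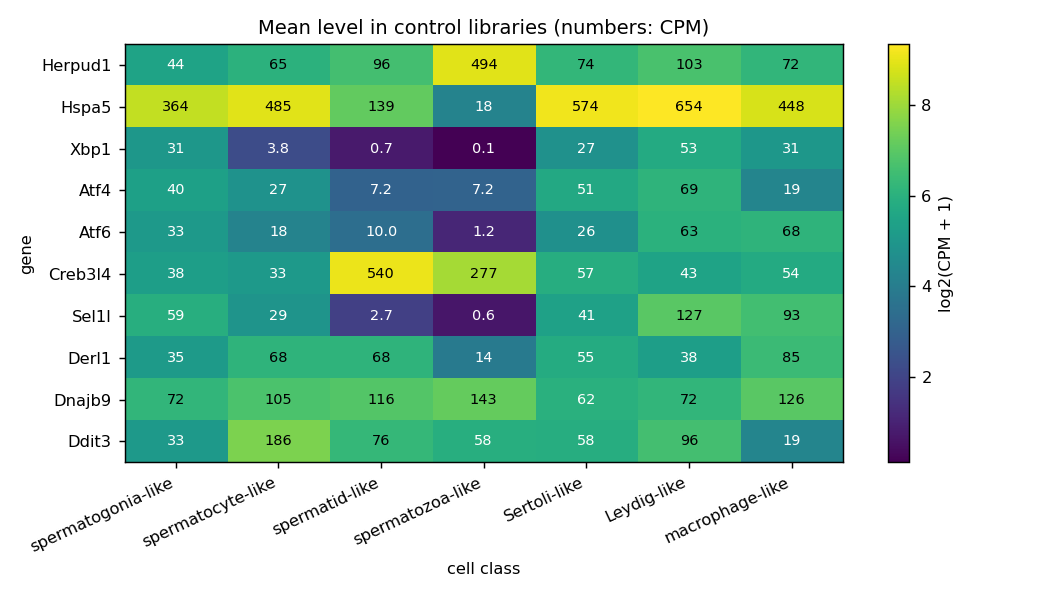
Mean level of the 10 genes in the control libraries (UC, VC-R, VC-T 2 and VC-T 3), genes in rows and cell classes in columns, with colour on the log2(CPM + 1) scale and CPM printed in each field (germ cell classes, n = 8; for somatic classes, the libraries with at least 10 such cells). Herpud1 is brightest in spermatozoa-like cells (494 CPM), Creb3l4 in spermatid-like cells (540.2 CPM) and Hspa5 is darkest among germ cells in spermatozoa-like cells (18.1 CPM).

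Herpud1 was almost absent from spermatids of JQ1-treated testes. In spermatid-like cells the 3 T libraries read 5.23, 4.798 and 3.06 CPM, from 50, 29 and 9 UMIs in 9563276, 6043717 and 2941216. The UC libraries read 97.8, 114 and 89.65 CPM and VC-T 2 and VC-T 3 read 128 and 84.2. VC-T 1, the vehicle library without spermatozoa-like cells, read 6.99 CPM from 52 UMIs, and so sat with T rather than with its own group. Every T library lay below every UC, VC-T 2 and VC-T 3 library. The log2 fold change fitted by edgeR was -4.68 ± 0.17 (SE, n = 3 and 3) against UC and -4.799 ± 0.204 (SE, n = 3 and 2) against VC-T, and -4.32 when VC-T 1 was kept. This is the difference by which the genes were chosen, so no test is given for it.

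After withdrawal Herpud1 was back near control levels. Spermatid-like cells of R held 99.9, 88.6 and 93.0 CPM, overlapping both UC and the VC-R values of 76.99, 83.0 and 91.3. In spermatozoa-like cells R held 522, 507 and 538 CPM, overlapping the UC range of 469.7 to 525 and lying inside the VC-R range of 458 to 567.

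**Figure D2:**
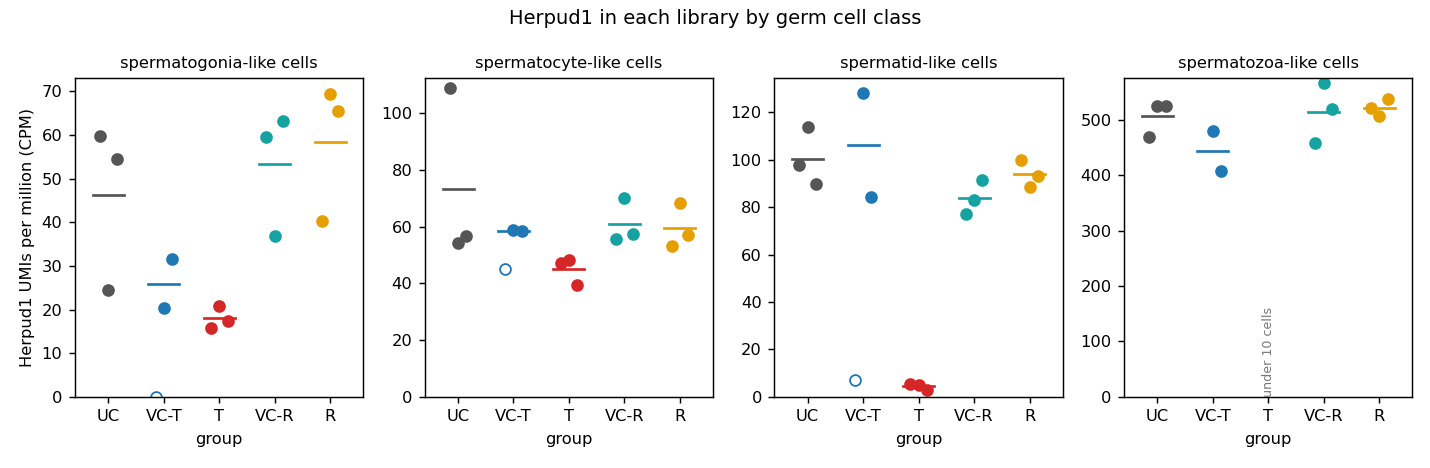
Herpud1 level in CPM (vertical axes, each from 0) in every library of the 5 groups (horizontal axis) for 4 germ cell classes; points are libraries, bars are group means and the open circle is VC-T 1, which is left out of the VC-T mean. In spermatid-like cells T lies at 3.06 to 5.23 CPM and VC-T 1 at 6.99, while the other libraries lie at 76.99 to 128.

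The libraries also differed in which spermatids they held. Counting libraries with at least 10 cells in a bin, T ended at pseudotime bin 13 and VC-T 1 at bin 12, before the bins where Herpud1 of the controls is highest. With equal numbers of cells drawn from each pseudotime bin of every library, the Herpud1 log2 fold change was -2.85 against UC and -2.52 against VC-T, smaller than without matching and still negative. In bins 7 to 12 the T mean lay below the control mean. T lay inside the control range in bin 10 (2.755 to 3.626 CPM against 1.575 to 78.07). The same held in bin 6 (49.05 to 70.25 against 30.65 to 315.7). In bin 9 T averaged 2.03 ± 0.767 CPM (SD, n = 3), VC-T 1 read 6.68 and the controls 12.7 ± 6.85, with a range of 3.17 to 25.8. In bin 12 T averaged 25.7 ± 11.7, VC-T 1 read 31.4 and the controls 99.75 ± 13.3, with no overlap between T and controls. In bin 13 a single T library had at least 10 cells, and its 30 cells gave 70.04 CPM against 280.1 ± 21.6 in the controls.

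Transcripts released from sperm can enter droplets of other cells, and 5 spermatozoa markers (Tssk6, Smcp, Oaz3, Odf1 and Gapdhs) moved with Herpud1. All 5 were detected in every library and class listed here. Over all cells their summed level was 1062 to 1445 CPM in T, 1539 in VC-T 1 and 6906 to 11120 in the other controls, and Herpud1 over all cells was 27.05 to 33.1, 26.8 and 186 to 281 CPM. In spermatid-like cells the markers stood at 2884 to 3094 CPM in T, 3107 in VC-T 1 and 4505 to 6110 in the other controls, a smaller relative gap than that of Herpud1. Per 100 marker UMIs, Herpud1 had 0.106 to 0.169 UMIs in T, 0.225 in VC-T 1 and 1.495 to 2.11 in the other controls. In the deepest spermatid cluster, the latest of the class (cluster 14), T 1 and T 2 read 29.5 and 28.9 CPM Herpud1 from 66 and 13 cells and VC-T 1 28.03 from 24 cells, against 166 to 244 in the other controls and 201 to 219 in R. The markers there were at 6509 and 6740 CPM in T 1 and T 2, 5999 in VC-T 1 and 7895 to 8846 in the other controls. Cells of this cluster were earlier in pseudotime in T 1, T 2 and VC-T 1 (medians of 0.534, 0.526 and 0.522) than in the controls (0.601 to 0.633). Taking 5% of each library's mean profile off every sum gave a Herpud1 log2 fold change of -5.00 against UC and -5.18 against VC-T. The part of free sperm RNA in the remaining Herpud1 difference was not tested.

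**Figure D3:**
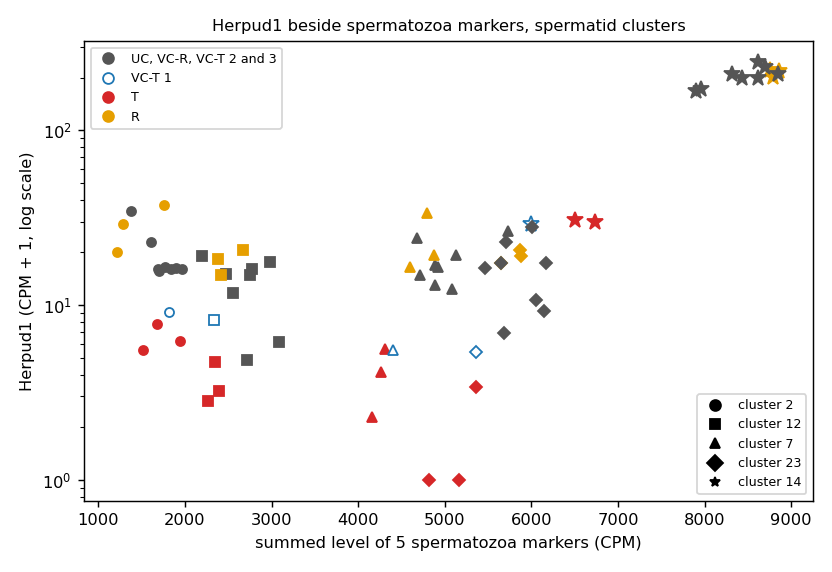
Herpud1 (vertical axis, CPM + 1, log scale) against the summed level of 5 spermatozoa markers (horizontal axis, CPM) in 5 spermatid-like clusters, 1 point per library and cluster with at least 10 cells; marker shape gives the cluster and colour the group, with VC-T 1 open. In cluster 14 (stars) the T libraries and VC-T 1 lie at 28.03 to 29.5 CPM of Herpud1 and all other libraries at 166 to 244.

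The other members had smaller fold changes in spermatids of T. These values come from the contrast that chose the genes and are a description. Of 9 members tested, 6 had an adjusted p under 0.05 against UC, where 51.4% of all genes did, and 7 against VC-T, where 41.8% did, and nothing is read from these counts. With VC-T 1 kept, 0 of 9 members and 0 of 13925 genes passed in edgeR, with 3802 genes at an unadjusted p under 0.05. Creb3l4 was the next in size. It read 359.8, 328 and 323 CPM in T, 564, 638 and 526 in UC, 539.9 and 553 in VC-T 2 and VC-T 3, and 374 in VC-T 1, so that VC-T 1 again lay beside T. Its log2 fold change was -1.05 ± 0.09 against UC and -0.998 ± 0.096 against VC-T, and -0.51 and -0.56 with matched pseudotime. Hspa5 was higher, at 241, 239.9 and 223 CPM in T against 116, 95.7 and 166 in UC and 158 and 94.2 in VC-T 2 and VC-T 3, with 198 in VC-T 1. Its log2 fold change was 0.62 ± 0.13 and 0.60 ± 0.16, and 0.18 and 0.35 with matched pseudotime. Derl1 was lower by -0.42 ± 0.09 and -0.33 ± 0.11 on the log2 scale in the fit, which rescales libraries by TMM. Its CPM in T, 65.4 to 70.4, overlapped those in UC (67.6 to 78.6) and in VC-T 2 and VC-T 3 (63.9 to 74.0). Dnajb9 also depended on the scaling: its CPM were higher in T (117 to 119.8) than in UC (106.4 to 116.2). Its fitted values against UC were negative, at -0.241 to -0.068 over the alternatives. Ddit3 was higher by 0.24 ± 0.09 and 0.30 ± 0.10. Atf6 was at -0.61 ± 0.24 and -0.89 ± 0.30 but at 0.41 and 0.70 with matched pseudotime. Atf4, Dnajb9 and Sel1l lay between -0.64 and 0.70, and Xbp1, at 0.203 to 1.78 CPM in all libraries, was too low to be tested.

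**Figure D4:**
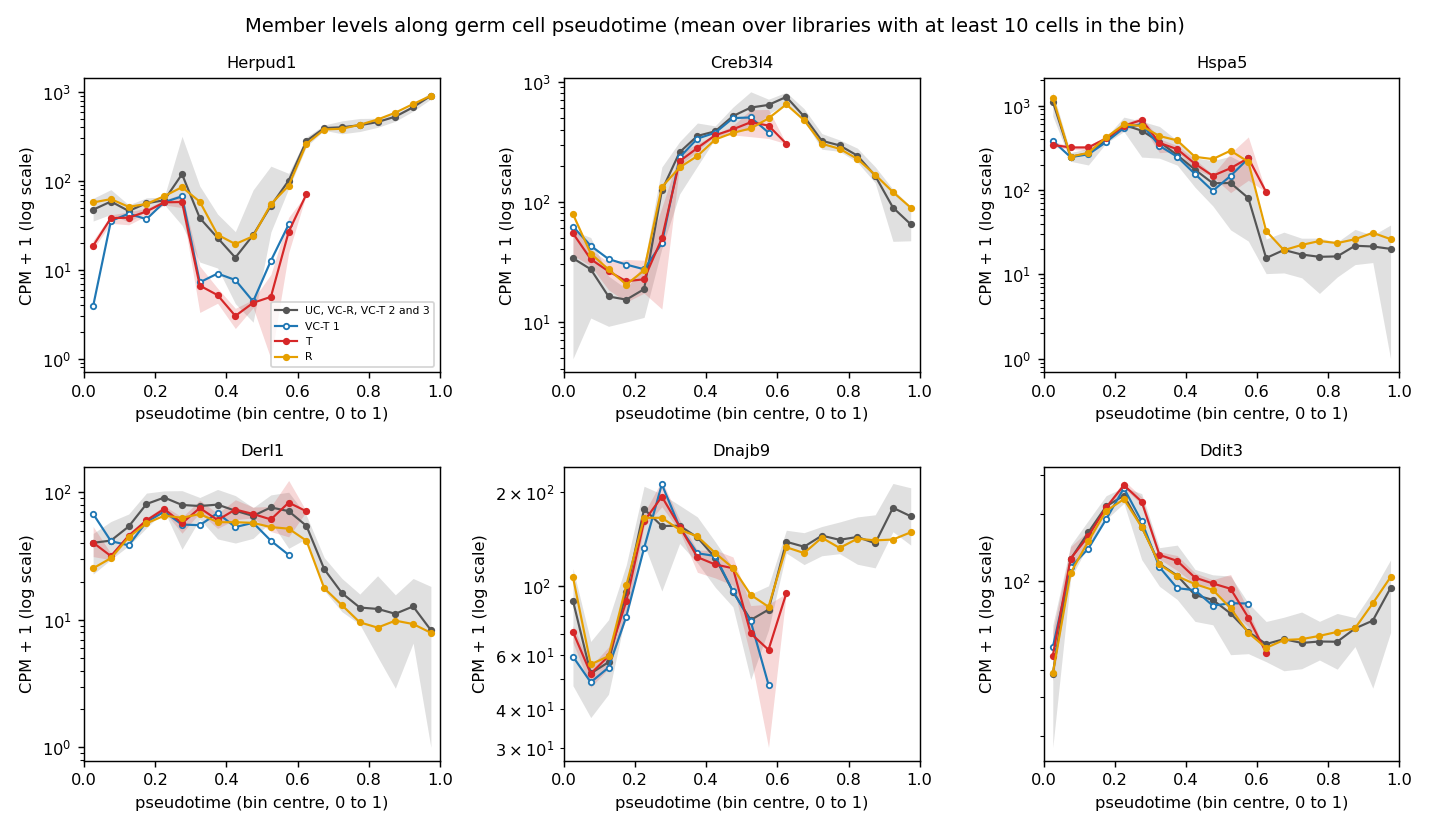
Level of 6 members (vertical axes, CPM + 1, log scale) along 20 bins of germ cell pseudotime (horizontal axes, 0 to 1), as the mean over libraries with at least 10 cells in the bin for controls (UC, VC-R, VC-T 2 and VC-T 3), T, R and VC-T 1; shading spans the lowest and highest library of the controls and of T. T and VC-T 1 end in bins 13 and 12, where Herpud1 of the controls is at 280.1 and 99.75 CPM, and the Creb3l4 curve of T stays under that of the controls in bins 11 to 13.

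Before the haploid stages, Herpud1 differed less between T and the controls, and the calls of the members depended on the control group. In spermatocyte-like cells, 0 of 10 members passed edgeR's quasi-likelihood test with Benjamini-Hochberg adjustment over all genes between T and UC, where 1.59% of genes passed. At an unadjusted p under 0.05 there were 3 members and 2486 of 12359 genes, and DESeq2 called 752 genes and 1 member. That member was Derl1, at -0.53 ± 0.11 on the log2 scale (adjusted p = 0.061 in edgeR, 0.0043 in DESeq2). Same-numbered T and UC libraries deviated together in this class, as given under the processing, though the labels give no pairing. With the replicate number as a block Derl1 passed (-0.52, adjusted p = 0.0495, edgeR) while the other 9 members did not. Herpud1 read 47.0, 48.4 and 39.5 CPM in T and 109, 54.1 and 56.7 in UC. Every T library lay below every UC library, and UC 1 was far above the rest. The log2 fold change of -0.84 ± 0.31 (adjusted p = 0.199, edgeR) became -0.36 (adjusted p = 0.105) without UC 1. UC 1 gave 211 of the 486 cells of 1 spermatocyte-like cluster, with Herpud1 at 249 CPM, and T gave none. Without UC 1 Derl1 passed (-0.50, adjusted p = 0.024).

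Against VC-T, 3 of 10 members passed in spermatocyte-like cells, all lower in T, where 8.44% of genes passed, 5.75% in that direction. Derl1 read 52.0, 54.4 and 52.8 CPM in T and 79.7 and 70.3 in VC-T 2 and VC-T 3, a log2 fold change of -0.60 ± 0.09 (adjusted p = 0.0031, edgeR). VC-T 1, at 52.8, lay with T, and with it the value was -0.42 (adjusted p = 0.298). Dnajb9 read 101, 98.1 and 85.2 CPM in T and 122 and 115 in VC-T 2 and VC-T 3, a change of -0.42 ± 0.10 (adjusted p = 0.025, edgeR). With VC-T 1, at 87.1, it was -0.26 (adjusted p = 0.494), and the call was lost in 5 of 15 alternatives, among them without T 3 (adjusted p = 0.083), VC-T 2 (0.077) or VC-T 3 (0.101). Herpud1, at 58.7 and 58.3 CPM in VC-T 2 and VC-T 3, was lower in T by -0.47 ± 0.12 (adjusted p = 0.036, edgeR), and VC-T 1 read 44.9 CPM. The Herpud1 call was lost in 8 of 15 alternatives, with adjusted p up to 0.4 (-0.32, with VC-T 1 kept). These included subtraction of 5% ambient profile (-0.24, adjusted p = 0.256), DESeq2 (adjusted p = 0.055), and leaving out T 3 (0.108), VC-T 2 (0.083) or VC-T 3 (0.175). Beside it, the 5 spermatozoa markers in spermatocyte-like cells stood at 125 to 271 CPM in T, 221 in VC-T 1 and 389 to 2611 in the other controls. With VC-T 1 kept, 0 of the 10 members passed (edgeR), where 0.438% of genes did.

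In spermatogonia-like cells, 0 of 8 members tested passed between T and UC (edgeR), where 8.50% of genes passed. At an unadjusted p under 0.05 there were 2 members and 1495 of 7331 genes, and DESeq2 called 0 members and 242 genes. Herpud1 was removed there by the filter on low counts. It read 15.8, 20.9 and 17.4 CPM in T, from 12, 10 and 6 UMIs, and 59.9, 24.4 and 54.5 in UC, from 6, 6 and 23 UMIs, so that T lay below UC throughout. VC-T 2 and VC-T 3 read 20.3 and 31.6 CPM, which overlapped T, and VC-T 1 read 0, below every T library. The 5 spermatozoa markers in this class stood at 255 to 608.5 CPM in T and 688.5 to 2086 in the 8 controls. Against VC-T, 1 of 10 members passed, where 13.1% of genes did. That was Ddit3, at 59.3, 50.1 and 40.5 CPM in T and 13.1 and 15.0 in VC-T 2 and VC-T 3, a log2 fold change of 1.84 ± 0.36 (adjusted p = 0.0027, edgeR). VC-T 1 held 55.5 CPM of Ddit3, inside the T range, and with it the value was 1.08 (adjusted p = 0.832). Ddit3 was highest in spermatocyte-like cells, which were 2735 of 5526, 2041 of 3776 and 1287 of 2430 cells in T. They were 2361 of 5504 in VC-T 1, 431 of 3585 in VC-T 2 and 606 of 3487 in VC-T 3. The part of spermatocyte RNA in the Ddit3 difference was not tested. In UC Ddit3 was at 29.9, 20.3 and 35.6 CPM, below every T library, with a log2 fold change of 0.79 ± 0.36 (adjusted p = 0.205, edgeR).

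In recovery, spermatids still differed from UC in several members. Against UC, 6 of 9 members passed in spermatid-like cells, 3 higher and 3 lower in R, where 40.4% of genes passed, 21.1% higher and 19.3% lower. Creb3l4 read 458, 434 and 416 CPM in R and 564, 638 and 526 in UC, a log2 fold change of -0.62 ± 0.09 (adjusted p = 5.7e-06, edgeR). Derl1 read 55.1, 51.7 and 49.3 CPM in R and 67.6, 76.2 and 78.6 in UC, a change of -0.74 ± 0.10 (adjusted p = 1.9e-06, edgeR). The groups did not overlap in either gene, and both calls held in all 16 alternatives, with adjusted p up to 0.0082 for Creb3l4 and 0.0044 for Derl1. Hspa5 read 213, 210.0 and 229.8 CPM in R, above 116, 95.7 and 166 in UC, a change of 0.56 ± 0.11 (adjusted p = 2.8e-04, edgeR), and held in 15 of 16 alternatives. Herpud1 was lower by -0.32 ± 0.10 (adjusted p = 0.013, edgeR) in the fit, which rescales libraries by TMM, while the CPM of both groups overlapped. It did not pass in 6 of 16 alternatives, among them without UC 2 (-0.19, adjusted p = 0.125) and without the shallow clusters (-0.19, adjusted p = 0.204), the others being a single fit of all libraries, cells with at least 2000 UMIs, and leaving out R 2 or R 3. Atf6 (0.57 ± 0.18, adjusted p = 0.011, edgeR) and Sel1l (0.83 ± 0.30, adjusted p = 0.030, edgeR) were higher in R. Without the shallow clusters Atf6 turned to -0.30 (adjusted p = 0.311) and Sel1l was at 0.64 (adjusted p = 0.155), leaving 3 members past the test, Creb3l4, Derl1 and Hspa5, where 16.6% of genes passed. VC-T 2, the other library with mostly shallow spermatids, had the highest Atf6 of the controls (14.2 CPM), while its Sel1l (2.93 CPM) lay inside the UC range. The 5 spermatozoa markers of spermatid-like cells were at 4798 to 5205 CPM in R and 5245 to 6110 in UC.

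Against VC-R, the control of the same age and schedule, 0 of 9 members passed in spermatid-like cells, where 3.59% of genes passed (edgeR). At an unadjusted p under 0.05 there were 4 members and 4588 of 15142 genes, and DESeq2 called 0 members and 1588 genes. The count of 0 passing members in edgeR rested on VC-R 1. Hspa5 read 259, 102 and 121 CPM in VC-R 1, VC-R 2 and VC-R 3, Creb3l4 376, 573 and 552, and Derl1 47.7, 64.4 and 70.2, so that VC-R 1 lay beyond R in each of the 3 genes. Without VC-R 1, 6 of 9 members passed, where 42.3% of genes did: Creb3l4 at -0.63 (adjusted p = 5.9e-11, edgeR), Derl1 at -0.64, Dnajb9 at -0.23, Hspa5 at 0.71, Atf6 at 0.55 and Sel1l at 0.98. Herpud1 was at -0.06 ± 0.13 (adjusted p = 0.774) with VC-R 1 and -0.16 (adjusted p = 0.18) without it.

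**Figure D5:**
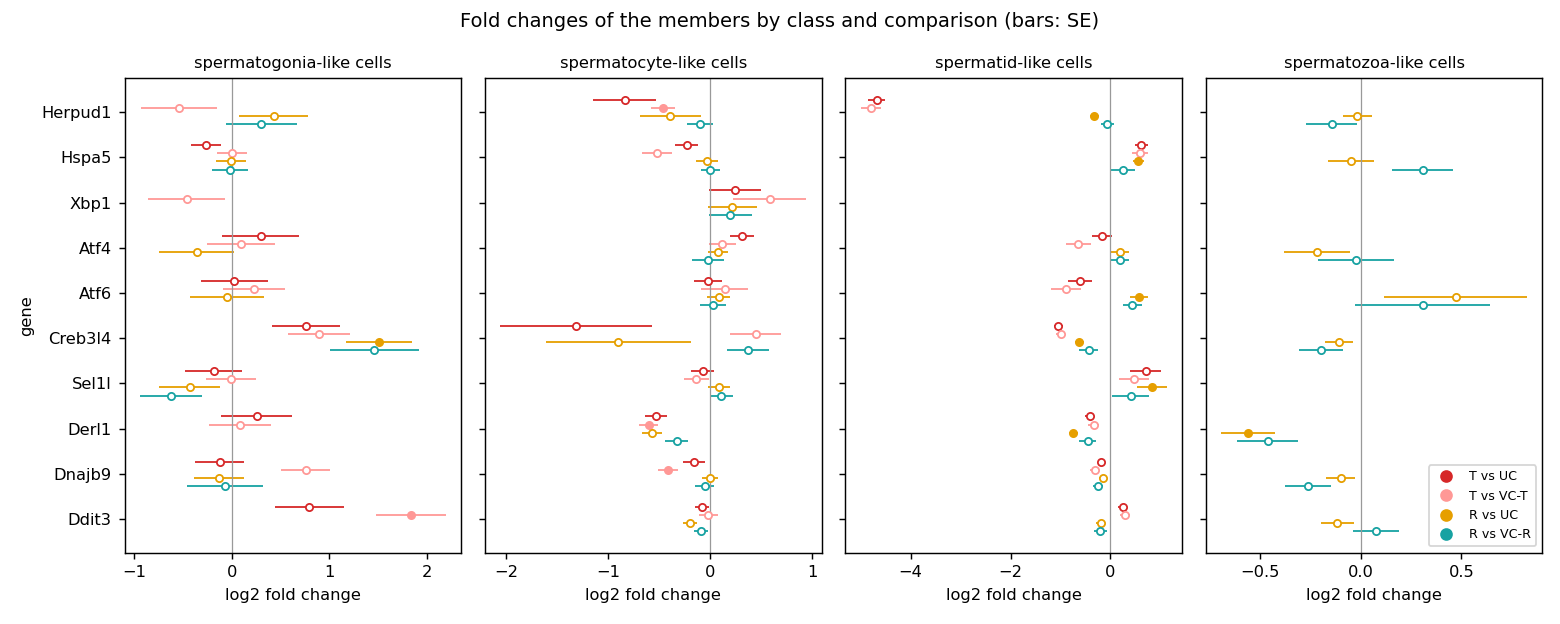
Log2 fold change (horizontal axes, bars are SE) of the 10 members (vertical axis) in 4 germ cell classes and 4 comparisons by edgeR; filled points have an adjusted p under 0.05, and points of T in spermatid-like cells are drawn as open circles because that contrast chose the genes. Herpud1 in spermatid-like cells of T stands alone at -4.68 and -4.799, and Derl1 lies left of 0 in every comparison outside spermatogonia-like cells.

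In spermatozoa-like cells, 1 of 8 members passed between R and UC, where 6.89% of genes passed. Derl1 read 9.92, 10.7 and 10.8 CPM in R and 16.4, 11.3 and 16.8 in UC, a log2 fold change of -0.56 ± 0.13 (adjusted p = 0.0062, edgeR), and the adjusted p was 0.055 without UC 3. Herpud1, at its highest in this class, differed by -0.02 ± 0.07 (adjusted p = 0.93, edgeR). Against VC-R, 0 of 8 members and 0% of genes passed (edgeR), with 2 members and 1805 genes at an unadjusted p under 0.05, and 0 members and 3 genes in DESeq2. Without VC-R 1, Derl1 (-0.66, adjusted p = 0.0076), Hspa5 (0.63, adjusted p = 0.0085) and Dnajb9 (-0.36, adjusted p = 0.025) passed, where 9.48% of genes did (edgeR).

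In spermatocyte-like cells of R, 0 of 10 members passed against UC and 0 of 10 against VC-R (edgeR), where 0.00735% and 0% of genes passed. At an unadjusted p under 0.05 there were 1099 of 13600 and 701 of 13646 genes, with 2 and 1 members among them. DESeq2 called 376 and 1 genes, with 2 and 0 members among them. The 2 were Derl1 (-0.57 ± 0.10 in edgeR, adjusted p = 0.275) and Ddit3 (-0.20 ± 0.07, adjusted p = 0.544). In spermatogonia-like cells, 1 of 7 members passed against UC, where 0.544% of genes did. Creb3l4 read 64.0, 87.6 and 121 CPM in R and 39.9, 24.4 and 37.9 in UC, a log2 fold change of 1.51 ± 0.34 (adjusted p = 0.046, edgeR). The adjusted p was above 0.05 in 10 of 14 alternatives, among them DESeq2 and leaving out any UC library. Beside this haploid-enriched gene, the 5 spermatozoa markers in spermatogonia-like cells stood at 1825 to 2795 CPM in R. They were at 1111 to 2086 in UC and 770.6 to 1656 in VC-R. The part of haploid RNA in the Creb3l4 difference was not tested. Against VC-R, 0 of 5 members tested passed (edgeR), where 0% of genes did, with 1 member and 504 genes at an unadjusted p under 0.05 and 0 genes in DESeq2. Without VC-R 1, at 95.3 CPM, Creb3l4 was at 2.13 (adjusted p = 0.031, edgeR), where 0.944% of genes passed.

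Other genes of the pathway were counted in 5 lists. In spermatids of T, a description as above, the 17 ER chaperones and folding enzymes had 9 higher and 0 lower against UC. There 23.6% of all genes were higher and 27.7% lower (median log2 fold change of 0.36, against 0.05 over all genes). Against VC-T the list had 6 higher and 0 lower, where 16.1% of all genes were higher and 25.7% lower (0.32, against 0.02). T ended earlier in pseudotime than the controls, and no values matched on pseudotime are given for the lists. Hspa5, a member outside the list, went from 0.62 to 0.18 against UC with matching. The part of cell stage in the list counts was not tested. Hsp90b1, the ER-resident HSP90, averaged 265 ± 3.21 CPM in T and 132 ± 24.8 in UC, and Dnajc10, an ER disulfide reductase, 61.0 ± 4.01 and 31.1 ± 3.38 (SD, n = 3). The ERAD list split, with 8 higher and 7 lower of 23 tested against UC and 9 and 5 of 24 against VC-T. Its largest decreases were Rnf5 (-2.46 against UC), an ERAD ubiquitin ligase, Ube2g2 (-2.41), an ERAD ubiquitin-conjugating enzyme, and Herpud2 (-1.77), the paralogue of Herpud1, which averaged 29.1 ± 2.81 CPM in T and 82.0 ± 13.3 in UC. Of the CREB3 family and testis ER chaperones, 1 was higher and 2 lower of 4 against UC, and 2 and 2 of 6 against VC-T. Calr3, the testis calreticulin, went from 184 ± 15.2 CPM in UC to 38.0 ± 8.63 in T, and Clgn, the testis chaperone calmegin, from 323 ± 47.2 to 533 ± 15.1. Of the ATF4 and CHOP target genes, 1 was higher and 2 lower of 5 against UC, and 1 and 2 of 6 against VC-T, with Asns, asparagine synthetase, at 15.3 ± 8.51 CPM in T and 102 ± 11.3 in UC. Of the stress sensors and their proteases, 2 of 4 were higher and 0 lower in each comparison, among them Eif2s1, the translation factor eIF2 alpha, at 0.34 and 0.39. With VC-T 1 kept, 0 of 55 list genes and 0 of 13925 genes in all passed against VC-T (edgeR), with 13 and 3802 at an unadjusted p under 0.05.

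In spermatocyte-like cells of T against VC-T, 5 of 17 chaperones and folding enzymes were lower and 0 higher, where 5.75% of all genes were lower, with Pdia6 at -0.40 (adjusted p = 0.018, edgeR) and Calr at -0.35 (adjusted p = 0.037). Derl2 (-0.64, adjusted p = 0.0042) and Herpud2 (-0.87, adjusted p = 0.026) were lower among 24 ERAD genes, and Ern1, which encodes the sensor IRE1 alpha, was at -2.76 (adjusted p = 0.0029) from 0.942 ± 0.310 CPM in T (n = 3) and 5.97 ± 2.58 in VC-T (n = 2). Of the other lists in this comparison, 0 of 6 ATF4 and CHOP targets and 0 of 4 CREB3 and testis chaperone genes passed. Against UC 0 of 51 genes of the 5 lists passed (edgeR), where 1.59% of all genes did. Of the 51, 12 had an unadjusted p under 0.05 and 5 passed in DESeq2, against 2486 and 752 of 12359 genes in all. With VC-T 1 kept, 0 of 55 list genes passed against VC-T in this class (edgeR), where 0.438% of all genes did. At an unadjusted p under 0.05 there were 6 list genes and 1727 of 13235 genes in all. Pdia6 was then at -0.29 (adjusted p = 0.318), Calr at -0.22 (0.479), Derl2 at -0.50 (0.194) and Herpud2 at -0.59 (0.397), and Ern1 was too low to be tested.

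In spermatogonia-like cells Clgn was higher in T, at 1.24 against UC (adjusted p = 0.0042, edgeR) and 2.14 against VC-T (adjusted p = 3.8e-05, edgeR), as T averaged 225 ± 27.2 CPM, while UC averaged 107 ± 64.55 and VC-T stood at 50.8 ± 12.7. Erlec1, an ER lectin of ERAD, was higher in both, by 1.22 (adjusted p = 0.027) and 1.04 (adjusted p = 0.021). P4hb, protein disulfide isomerase, was lower against UC (-0.67, adjusted p = 0.046, edgeR). Higher against VC-T were Ero1lb (1.33, adjusted p = 0.010), Sdf2l1 (1.06, adjusted p = 0.018) and Sel1l2 (2.46, adjusted p = 0.0049, edgeR). Only 3 of 43 list genes passed against UC, where 8.5% of all genes did. Against VC-T, 5 of 53 list genes passed, where 13.1% of all genes did. DESeq2 called 1 list gene against UC and 2 against VC-T, and nothing is read from these counts. The calls against VC-T were lost with VC-T 1 kept, when 0 of 47 list genes and 0 of 8625 genes in all passed (edgeR), with 3 and 445 at an unadjusted p under 0.05. Clgn was then at 0.91 (adjusted p = 0.834), Erlec1 at 0.64, Ero1lb at 0.54, Sdf2l1 at 0.82 and Sel1l2 at 1.17 (adjusted p of 0.832 to 0.835).

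In spermatids of R against UC, the chaperone list had 2 higher and 3 lower of 17, the ERAD list 4 and 5 of 24, the CREB3 and testis chaperone list 0 and 3 of 4, the ATF4 and CHOP list 0 and 1 of 5 and the sensor list 0 and 1 of 4 (median log2 fold changes of 0.11, -0.16, -0.43, -0.23 and 0.01, against 0.05 over all genes). In all, 19 of 54 list genes passed, where 40.4% of all genes did, and 9 of 51 without the shallow clusters, where 16.6% did. Hsp90b1 had the lowest adjusted p among the chaperones, at 256 ± 16.96 CPM in R and 132 ± 24.8 in UC (0.73 ± 0.09, adjusted p = 1.7e-06, edgeR). Pdilt, a testis protein disulfide isomerase, was lower (-0.57, adjusted p = 7.6e-06, edgeR), as was Ube2j1, an ERAD ubiquitin-conjugating enzyme (-0.55, adjusted p = 9.6e-06). Asns was lower by -0.55 (adjusted p = 1.2e-04, edgeR), and Edem3, which trims mannose in ERAD, was higher by 1.23 (adjusted p = 9.3e-04). In spermatozoa-like cells of R against UC, 7 of 43 list genes passed (edgeR), where 6.89% of all genes did. Of 15 chaperone-list genes tested, 2 were higher in R and 0 lower. These were Manf (0.44, adjusted p = 0.0031, edgeR) and Creld2 (0.50, adjusted p = 0.0051), which encode secreted stress-induced ER proteins. Of 20 ERAD genes, 1 was higher and 3 were lower, and 1 of 4 CREB3 and testis chaperone genes was lower. Against VC-R, 0 genes of the 5 lists passed in any of the 4 classes (edgeR) and 0 in DESeq2. At an unadjusted p under 0.05 there were 7 of 54 in spermatid-like, 10 of 43 in spermatozoa-like, 5 of 55 in spermatocyte-like and 1 of 39 in spermatogonia-like cells. The same threshold held for 4588 of 15142, 1805 of 11922, 701 of 13646 and 504 of 6448 genes in all, in the same order. Of all genes, 3.59% passed in spermatid-like cells and 0% in the others. These counts rested on VC-R 1 in haploid cells: without it 23 of 55 list genes passed in spermatid-like cells and 10 of 48 in spermatozoa-like cells, where 42.3% and 9.48% of all genes did.

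The genes whose levels ran most like Herpud1 over 56 sums of a library and a germ cell class were Col20a1 (Pearson r = 0.938), Eif4e (0.892), Nat8f4 (0.891), Eif4h (0.8895) and Yjefn3 (0.882), of 9952 genes with a mean of at least 10 CPM. Their means in spermatozoa-like cells were 385, 909.7, 73.7, 946 and 309.7 CPM, against 12.2, 189.9, 3.61, 117 and 22.1 in spermatogonia-like cells. Within the members, Herpud1 ran most like Dnajb9 (r = 0.516) and Creb3l4 (0.327) and least like Hspa5 (-0.704), Atf6 (-0.661) and Derl1 (-0.634). The sums share libraries and depth and follow 4 classes, so these coefficients describe stage patterns and carry no test.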

How the data were processed

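The deposited files hold UMI counts per gene and cell for 15 10x Genomics libraries, which the authors made with Cell Ranger on mm10 (version 3.0.0 per the submitters' notes, 7.0.0 per the file headers); whether intronic reads were counted is not given in the sources used here. Cells under 500 genes or 1000 UMIs, or over 30% mitochondrial UMIs, were dropped, and in each library the 5.4% with the highest doublet score were removed. Leiden clustering (scanpy 1.11.5, 2000 variable genes, 30 components, 20 neighbours, resolution 1.2) was run without the 10 genes and named from markers. Counts were summed per library and class and tested with edgeR 4.0.16 (quasi-likelihood F test, TMM, filterByExpr, Benjamini-Hochberg adjustment over all genes, threshold 0.05), and checked on simulated data. DESeq2 1.42.0 was an alternative. Each group had 3 libraries from separate testes, and VC-T 1 was left out of VC-T. Sums had at least 10 cells.

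The members and lists were chosen with earlier results of these data known. The text names all 10 members and, of each list and comparison, up to 4 genes past the test. Same-numbered libraries deviated together in every pair only in spermatocyte-like cells of T and UC (r = 0.670, 0.4 and 0.107). That case was singled out from all classes and comparisons checked, and R and UC in the same class gave -0.332, -0.386 and 0.0806. The labels give no shared animal or batch. Alternatives were DESeq2, DESeq2 size factors, no filter on low counts, 1 fit of all libraries, a replicate block, 5% ambient subtraction, cells with at least 2000 UMIs, doublets kept, matching on pseudotime, VC-T 1 kept and leaving out each library. Leaving out the shallow spermatid clusters was added after seeing the data.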

Additional observations from a re-analysis of the deposited data

Results flagged for a closer look

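In 6 cases every library of the first group, with VC-T 1 left out of VC-T, lay on 1 side of the second group in 1 cell class and on the opposite side in another. How many of all genes show such opposite sides was not counted, so nothing is read from the number of cases. The differences between classes were not tested, and they are given as differences of log2 fold changes. Hspa5 in T against UC was higher in spermatid-like cells (0.62) and lower in spermatogonia-like cells (-0.27), a difference of 0.887. Xbp1 in T against VC-T was higher in spermatocyte-like (0.58) and lower in spermatogonia-like cells (-0.46), a difference of 1.041. Creb3l4 in T against VC-T was higher in spermatogonia-like (0.90) and lower in spermatid-like cells (-0.998), a difference of 1.894. Dnajb9 in T against VC-T was higher in spermatogonia-like (0.76) and lower in spermatocyte-like cells (-0.42), a difference of 1.176. Creb3l4 in R against UC was higher in spermatogonia-like (1.51) and lower in spermatid-like cells (-0.62), a difference of 2.134. The spermatozoa markers in those spermatogonia-like cells were at 1825 to 2795 CPM in R and 1111 to 2086 in UC. Sel1l in R against VC-R was higher in spermatocyte-like (0.11) and lower in spermatogonia-like cells (-0.62), a difference of 0.733. The 3 cases against VC-T do not hold with VC-T 1 counted: it read 6.52 CPM of Xbp1 in spermatocyte-like cells, above T, and its 52.2 CPM of Creb3l4 in spermatogonia-like cells and 87.1 CPM of Dnajb9 in spermatocyte-like cells lay inside the T range.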

How the results depend on the processing

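Of 603 alternative values of 39 member fold changes, 526 were counted as the same. For T in spermatid-like cells this meant a shift under the larger replicate SD, and elsewhere the same side of the threshold. Of the others, 47 fell short of the threshold, 1 newly passed, 26 values of T in spermatid-like cells moved by at least that SD, and 3 turned direction. Turns were counted only for values past the threshold. Atf4 in spermatid-like cells of T against VC-T, not among them, spanned -0.845 to 0.271 over its alternatives. Atf6 in spermatid-like cells turned to -0.304 for R against UC without the shallow clusters, and to 0.409 and 0.704 for T against UC and VC-T with matched pseudotime; the cause was not tested. In spermatid-like cells the members passing for R against UC fell from 6 to 2 in 1 fit of all libraries, 3 with cells of at least 2000 UMIs and 3 without the shallow clusters. All genes passing fell from 6107 of 15101 to 3762 of 15502, 3348 of 14162 and 2273 of 13733 in the same order. For R against VC-R the members passing rose from 0 to 1 in 1 fit, 1 with matching and 2 with no filter. All genes passing rose from 544 of 15142 to 2416 of 15502, 941 of 13021 and 2305 of 26798. For T against UC the members passing fell from 6 to 2 with matching, and all genes from 6883 of 13403 to 1638 of 10011. For T against VC-T the members fell from 7 to 3 in DESeq2, 0 with VC-T 1, 2 with matching and 4 with the replicate block. All genes fell from 6081 of 14558 to 4791 of 14558, 0 of 13925, 839 of 10307 and 5601 of 14558 in the same order. In spermatocyte-like cells R against UC went from 0 to 2 in DESeq2 and 1 with matching, and all genes from 1 of 13600 to 376 of 13600 and 514 of 11455. T against UC went from 0 to 1 in DESeq2, in 1 fit, with matching and with the replicate block. All genes there went from 196 of 12359 to 752 of 12359, 1168 of 14029, 602 of 10035 and 704 of 12359. T against VC-T went from 3 to 0 with VC-T 1 and 1 with matching, and all genes from 1108 of 13127 to 58 of 13235 and 554 of 9779. In spermatogonia-like cells R against UC went from 1 to 0 in DESeq2, in 1 fit, with ambient subtraction, with at least 2000 UMIs, with doublets and with matching. All genes there went from 35 of 6434 to 12, 0, 2, 1, 1 and 0 in the same order. R against VC-R went from 0 to 1 with no filter, and all genes from 0 of 6448 to 80 of 20332. T against UC went from 0 to 1 in 1 fit, with at least 2000 UMIs and with no filter, and to 2 with doublets. All genes there went from 623 of 7331 to 460 of 8629, 843 of 4580, 715 of 20949 and 984 of 7932. T against VC-T went from 1 to 0 with VC-T 1 and with matching, 3 with ambient subtraction and 2 with doublets. All genes there went from 1252 of 9552 to 0 of 8625, 349 of 4291, 1028 of 9349 and 1683 of 9880. In spermatozoa-like cells R against UC went from 1 to 0 in 1 fit, and all genes from 825 of 11977 to 163 of 11758. Nothing is read from the member counts of this paragraph.

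Leaving out each library in turn gave, in spermatid-like cells, 4 to 6 members for R against UC and 0 to 6 for R against VC-R. For T against UC it gave 4 to 5. T against VC-T is not counted here, because dropping a VC-T library leaves a single one in that arm. In the same order the members were 0 to 1, 0 to 0 and 0 to 1 in spermatocyte-like cells and 0 to 1 each in spermatogonia-like cells. In spermatozoa-like cells they were 0 to 1 for R against UC and 0 to 3 for R against VC-R. Over all genes, spermatid-like cells gave 4112 to 5915, 4 to 6821 and 5782 to 6641 in that order. Spermatocyte-like cells gave 0 to 156, 0 to 123 and 2 to 846, and spermatogonia-like cells 0 to 331, 0 to 68 and 347 to 647. Spermatozoa-like cells gave 370 to 912 for R against UC, and 1243 of 13113 for R against VC-R without VC-R 1. Nothing is read from these member counts. By their labels the libraries share only a replicate number. Few UMIs limit Herpud1 in spermatogonia-like cells (0 to 40 per library) and Xbp1 in haploid cells.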
